A study of Mus musculus with 12 samples.

Results

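Interferon-induced genes are the transcripts that cells switch on when interferons bind their receptors, and 39 of them, with their regulators and the interferon gamma receptor, were followed in splenic erythroblasts. The members were chosen by gene name, by a rule that uses no measured value, with earlier results of these data known. Of the 39 genes, 38 were matched to a feature of the array that names a single gene, among 30702 such genes in all. Of these, 36 were tested among 20128 genes, because 3 or more arrays gave them a log2 value above 5.30. That value is the median over every feature and array, with features that name no gene included. Ifit3 and Mx1 did not pass that filter, and Ifi44 was not analysed here. Mx2 passed through basophilic arrays alone, and 29 members were above the filter value in all 12 arrays.

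Male mice were kept on a selenium-deficient or a selenium-adequate diet for 3 months and then given phenylhydrazine, which lyses red cells and so brings on erythropoiesis in the spleen. On day 3, basophilic erythroblasts and the earlier proerythroblasts were sorted from the spleen, and 5 ng of total RNA per sample was labelled for Affymetrix arrays that cover whole transcripts. The design held 3 arrays each of deficient basophilic erythroblasts, adequate basophilic erythroblasts, deficient proerythroblasts and adequate proerythroblasts, so all 4 groups carried the phenylhydrazine treatment. Strain, age and sort markers are not given in the sources used here. The labels do not say whether the arrays of a group came from separate mice, so p-values measure only the spread between these samples, which may be technical. Replicate 3 of the deficient basophilic group is called a proerythroblast sample in its description only, and it was kept as basophilic on its title and cell type label. Its values gave r = 0.994 against replicate 1 and r = 0.936 against replicate 2 of that group, beside r of 0.971 to 0.974 against the deficient proerythroblast arrays.

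Type I interferons bind a receptor of the chains IFNAR1 and IFNAR2, whose kinases phosphorylate STAT2. With IRF9 it forms part of a complex that binds the interferon-stimulated response element in promoters, whereas interferon gamma acts through IFNGR1 and IFNGR2. The induced proteins sense foreign RNA, degrade it, block its translation, modify proteins with ISG15, or damp the signal again. Erythroblasts lie in close contact with macrophages in the spleen, and interferons are known to alter red cell production during infection.

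The response element carries a pair of GAAA blocks set 2 bases apart. The letters GAAA, followed by any 2 bases and GAAA again, were searched on both strands, with 0 mismatches, in the 250 bases before each annotated gene start in RefSeq's promoter windows of the build GRCm38.p6. Of the 39 members, 29 had a window. The letters were present in 7 of these 29 (24.138%), against 936 of all 27025 genes with a window (3.463%). A match is a description of the letters and not a measured site, and a window without one shows only that these letters are not in those 250 bases. The 7 stretches are shown because they include the 3 members with the largest rise on the adequate diet (Isg15, Rsad2 and Oas3) as well as Bst2, which was lower on the deficient diet. Each is written on its gene's strand, with 20 bases of flank on either side, and capitals mark the matches. A match on the opposite strand shows a pair of TTTC blocks, and the 3 matches of Isg15 overlap, as do the 2 of Bst2.
Isg15: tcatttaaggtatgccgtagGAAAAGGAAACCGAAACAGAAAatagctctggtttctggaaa
Rsad2: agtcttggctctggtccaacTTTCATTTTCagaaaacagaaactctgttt
Oas3: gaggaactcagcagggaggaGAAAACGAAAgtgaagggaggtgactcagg
Ifit1: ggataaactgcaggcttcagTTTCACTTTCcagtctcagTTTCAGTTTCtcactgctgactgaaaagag
Ifit3: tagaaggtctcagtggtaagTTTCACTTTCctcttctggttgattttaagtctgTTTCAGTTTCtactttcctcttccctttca
Bst2: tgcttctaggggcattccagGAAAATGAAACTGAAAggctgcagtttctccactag
Stat2: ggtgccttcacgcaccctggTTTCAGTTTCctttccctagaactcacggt

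These stretches all lie upstream of the gene start. In GRCm38.p6, that of Isg15 is at chr4:156200855-156200916 on the minus strand, that of Rsad2 at chr12:26456543-26456592 on the minus strand, and that of Oas3 at chr5:120777705-120777754 on the minus strand. The stretch of Ifit1 is at chr19:34640765-34640833 and that of Ifit3 at chr19:34583353-34583436, both on the plus strand. The stretch of Bst2 is at chr8:71537567-71537622 on the minus strand, and that of Stat2 at chr10:128270256-128270305 on the plus strand. The first match starts 78 bases before the gene start in Isg15, 120 in Rsad2, 75 in Oas3, 104 in Ifit1, 156 in Ifit3, 130 in Bst2 and 222 in Stat2.

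All values are log2 expression as deposited. Erythroid markers (10 matched, such as Alas2, Slc4a1 and Klf1) had a mean level of 11.05 to 11.56 in deficient basophilic, 11.35 to 11.70 in adequate basophilic, 10.85 to 11.07 in deficient proerythroblast and 10.21 to 10.51 in adequate proerythroblast arrays. The median of the background features was 3.63 to 4.70 in basophilic and 3.31 to 3.53 in proerythroblast arrays. Replicate 2 stood apart in both basophilic groups, with background medians of 4.70 (deficient) and 4.19 (adequate), so some results are given with and without those arrays. Other results also changed in size without them. Macrophage markers (12 matched) had mean levels of 6.04 to 6.49 in deficient basophilic, 5.94 to 6.47 in adequate basophilic, 5.73 to 6.66 in deficient proerythroblast and 5.50 to 6.73 in adequate proerythroblast arrays. Plasmacytoid dendritic cell markers (8 matched, with Bst2 among them) had mean levels between 6.14 and 6.59 over the 12 arrays, above the filter value. Of these, Siglech, a defining marker of those cells, lay between 5.16 and 5.68, near the filter value. Adequate proerythroblast replicate 3 had the highest values of the macrophage marker Adgre1 (7.16), the B cell marker Ms4a1 (8.24) and the T cell marker Cd3e (7.23), against at most 6.30, 6.99 and 6.56 in the other 11 arrays. These 3 genes were picked after their values were seen. The mean levels of all matched macrophage, B cell, and T and NK cell markers were 6.73, 8.82 and 6.23 in that array. In the other arrays they were at most 6.66, 8.29 and 5.89.

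**Figure D1:**
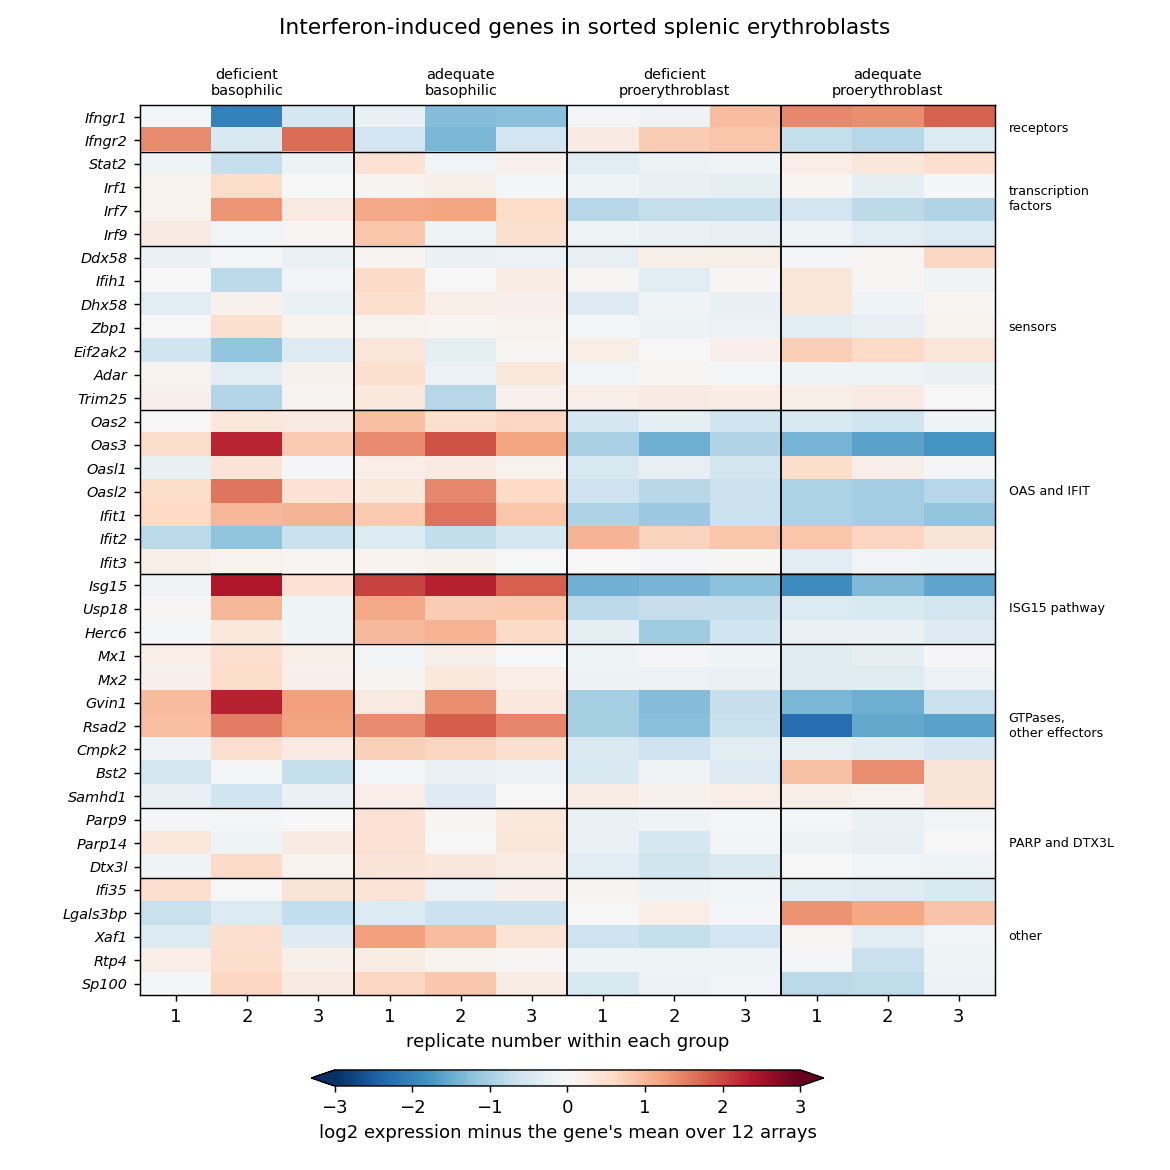
Log2 expression of the 38 matched genes minus each gene's mean over the 12 arrays (colour scale, red above and blue below the mean), with genes in rows by role and arrays in columns by group and replicate number. Rsad2, Oas3, Gvin1 and Ifit1 are red in the basophilic columns and blue in the proerythroblast columns, as is Isg15 except in deficient basophilic replicate 1, where it is near its mean, and Ifit2 runs the other way.

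The first question was how these genes changed as proerythroblasts became basophilic erythroblasts. Isg15, Rsad2, Oas3, Gvin1 and Ifit1 were among the genes that were higher in basophilic erythroblasts on both diets. Mx2 passed the filter only through basophilic arrays and is left out of these counts. On the deficient diet 15 of the other 35 tested members rose and 4 fell (54.3% passed), and on the adequate diet 16 rose and 4 fell (57.1% passed). Across all genes, 56% passed the test on the deficient diet (31.1% higher and 24.9% lower) and 54.2% on the adequate diet (28.7% higher and 25.6% lower). The members' shares passed in either direction were thus close to those of all genes. By direction, 42.9% of the 35 members rose and 11.4% fell on the deficient diet, and 45.7% rose and 11.4% fell on the adequate diet. The median difference of the 35 members was 0.41 on the deficient and 0.38 on the adequate diet, beside 0.08 and 0.12 over all genes tested. The 11 members that rose on both diets were Irf7, Oas2, Oas3, Oasl2, Ifit1, Isg15, Usp18, Herc6, Gvin1, Rsad2 and Cmpk2, and Ifit2 and Lgals3bp fell on both. Oas2, kept in these counts, was above the filter value in 1 array of each proerythroblast group, too few to pass without the basophilic arrays. Ifit1 was above it in 2 deficient and 1 adequate proerythroblast arrays, and Oasl2 in 3 and 1. Arrays hold RNA of a bulk sort, so a change in the number of cells of a kind and a change in RNA per cell cannot be told apart.

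Isg15 encodes a ubiquitin-like protein that is joined to other proteins. Its values were 7.24, 9.73 and 7.77 in deficient basophilic, 9.35, 9.64 and 9.13 in adequate basophilic, 5.90, 5.93 and 6.10 in deficient proerythroblast and 5.45, 6.01 and 5.76 in adequate proerythroblast arrays. Every basophilic array was above every proerythroblast array, and deficient basophilic replicate 2 lay well above the other arrays of its group. Isg15 rose by 2.27 on the deficient diet (SE 0.473, adjusted p = 0.00563), a 4.82-fold difference, and by 3.63 on the adequate diet (SE 0.473, adjusted p = 0.000123), a 12.4-fold difference. Without replicate 2 of both basophilic groups the rise was 1.53 on the deficient diet (adjusted p = 0.000405) and 3.50 on the adequate diet (adjusted p = 2.15e-06), in fits where 20 members (59% of all genes) and 25 members (68.4% of all genes) passed.

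Usp18 and Herc6, which remove and attach ISG15, moved in the same direction. Usp18, which strips ISG15 from its targets and damps signalling at the type I receptor, had 6.97, 7.94 and 6.82 in deficient basophilic and 8.07, 7.71 and 7.73 in adequate basophilic arrays, against 6.15, 6.26 and 6.25 in deficient and 6.54, 6.49 and 6.38 in adequate proerythroblast arrays. It rose by 1.02 on the deficient diet (SE 0.240, adjusted p = 0.00914) and by 1.37 on the adequate diet (SE 0.240, adjusted p = 0.00102). The rise of Usp18 was 0.68 (adjusted p = 0.00145) and 1.43 (adjusted p = 1.06e-05) on the deficient and adequate diets without replicate 2 of both basophilic groups. Herc6, the main ligase for ISG15 in the mouse, rose by 0.68 (adjusted p = 0.0205) and 1.13 (adjusted p = 0.00142) on the deficient and adequate diets. Outside the 39 genes, Ube2l6, the enzyme that carries ISG15 to its ligase, rose by 1.46 on the deficient diet (SE 0.202) and by 2.74 on the adequate diet (SE 0.202). Uba7, the activating enzyme before it, rose by 1.75 on the adequate diet (SE 0.269), with a difference of 0.45 on the deficient diet (adjusted p = 0.163).

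Oligoadenylate synthetases make a messenger that activates RNase L, and IFIT proteins bind foreign RNA. Of the 6 tested members of these families, 5 rose and 1 fell on the deficient diet, and 4 rose and 1 fell on the adequate diet. Across all genes 56% and 54.2% passed. Oas3 had 9.11, 10.88 and 9.38 in deficient basophilic and 10, 10.50 and 9.78 in adequate basophilic arrays, against 7.61, 7.13 and 7.68 in deficient and 7.18, 6.98 and 6.80 in adequate proerythroblast arrays. The groups did not overlap on either diet. Oas3 rose by 2.32 on the deficient diet (SE 0.379, adjusted p = 0.00162) and by 3.11 on the adequate diet (SE 0.379, adjusted p = 7.63e-05), an 8.61-fold difference. Without replicate 2 of both basophilic groups the rise of Oas3 was 1.77 (adjusted p = 0.000176) and 2.90 (adjusted p = 3.87e-06). Its neighbour Oas2, with no gene between them, rose by 0.66 (adjusted p = 0.0114) and 1.06 (adjusted p = 0.000457) on the deficient and adequate diets. Oas2 was tested only because of the basophilic arrays, in which it was the higher, so its rise is to be read with that limit.

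Ifit1 and Ifit2 went opposite ways. Ifit1 had 6.89, 7.29 and 7.31 in deficient basophilic and 7.09, 7.92 and 7.13 in adequate basophilic arrays, against 5.35, 5.18 and 5.64 in deficient and 5.35, 5.27 and 5.11 in adequate proerythroblast arrays. It rose by 1.77 on the deficient diet (SE 0.221, adjusted p = 0.000382) and by 2.14 on the adequate diet (SE 0.221, adjusted p = 2.45e-05). Ifit2 had 5.72, 5.30 and 5.84 in deficient basophilic and 6.11, 5.77 and 6.02 in adequate basophilic arrays, against 7.53, 7.18 and 7.34 in deficient and 7.35, 7.16 and 6.90 in adequate proerythroblast arrays. All basophilic arrays were thus below all proerythroblast arrays for Ifit2, which fell by 1.73 on the deficient diet (SE 0.178, adjusted p = 0.000169) and by 1.17 on the adequate diet (SE 0.178, adjusted p = 0.000375). Ifit3, the gene next to Ifit2, lay between 4.57 and 5.07 in all arrays and was not tested. It has a near-identical copy in the mouse, Ifit3b, from which a probe may not tell it apart.

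The other OAS-like members split. Oasl2 rose by 1.56 on the deficient diet (SE 0.313, adjusted p = 0.00467) and by 1.74 on the adequate diet (SE 0.313, adjusted p = 0.00117). Oasl1, its neighbour, restrains the translation of Irf7 in the mouse. It rose by 0.47 on the deficient diet (adjusted p = 0.0489), and the difference on the adequate diet was -0.03 (adjusted p = 0.884). The deficient call of Oasl1 was lost in 9 of the 12 fits that left out an array, with an adjusted p of up to 0.158 without deficient basophilic replicate 2.

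Rsad2 encodes viperin, which makes a chain-terminating nucleotide against viruses. Its values were 11.64, 12.26 and 11.93 in deficient basophilic and 12.14, 12.54 and 12.19 in adequate basophilic arrays, against 9.74, 9.47 and 10.07 in deficient and 8.45, 9.20 and 9.12 in adequate proerythroblast arrays. It rose by 2.18 on the deficient diet (SE 0.236, adjusted p = 0.000199) and by 3.37 on the adequate diet (SE 0.236, adjusted p = 2.11e-06), a 10.3-fold difference. Cmpk2, a mitochondrial nucleotide kinase encoded directly beside Rsad2, rose by 0.67 (adjusted p = 0.0103) and 0.99 (adjusted p = 0.000637) on the deficient and adequate diets. The pair therefore moved in the same direction, Rsad2 by the larger amount.

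**Figure D2:**
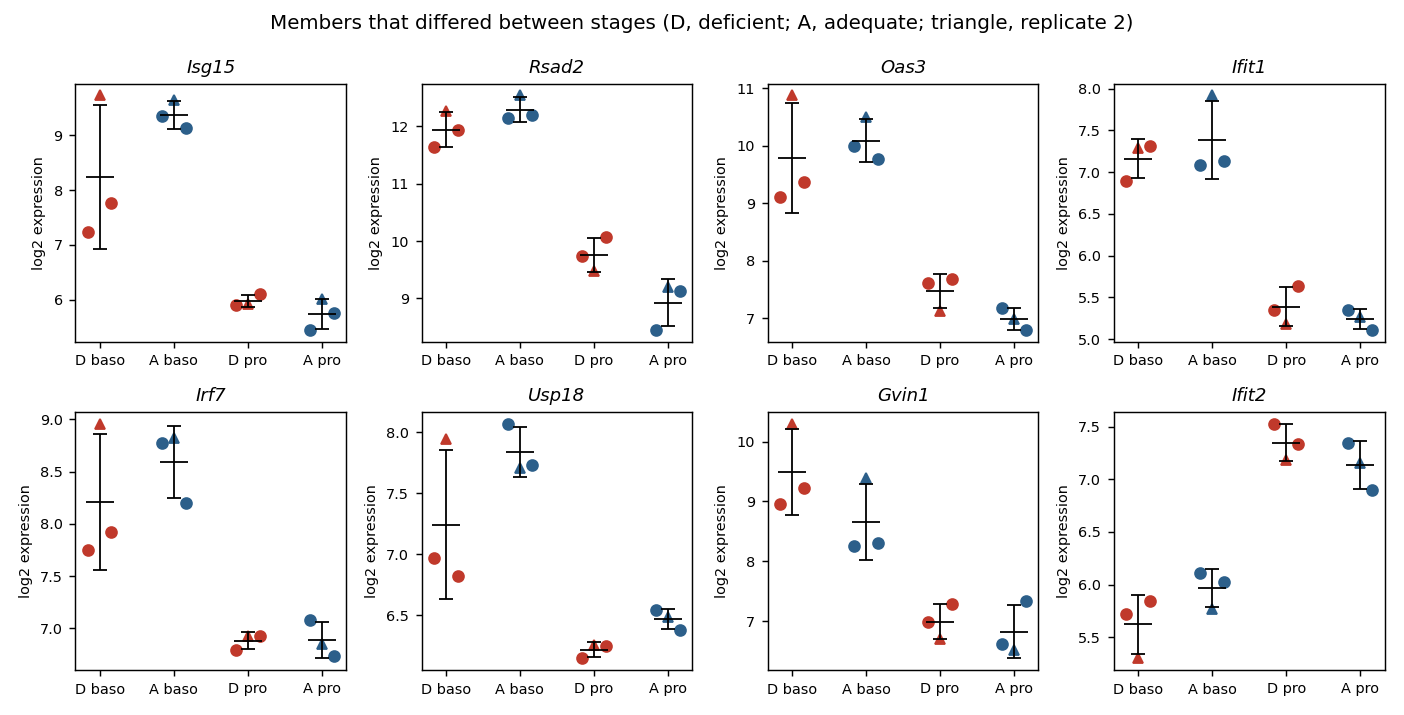
Log2 expression of 8 genes in each array (points; triangles are replicate 2), with the group mean and SD (bars), for deficient (D, red) and adequate (A, blue) basophilic erythroblasts (baso) and proerythroblasts (pro). Basophilic arrays lie above proerythroblast arrays of the same diet for 7 genes and below them for Ifit2, and deficient basophilic replicate 2 is the highest of its group for Isg15, Rsad2, Oas3, Irf7, Usp18 and Gvin1.

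Gvin1, a very large interferon-inducible GTPase, had 8.95, 10.30 and 9.22 in deficient basophilic and 8.26, 9.39 and 8.31 in adequate basophilic arrays, against 6.99, 6.70 and 7.29 in deficient and 6.62, 6.52 and 7.33 in adequate proerythroblast arrays. It rose by 2.50 on the deficient diet (SE 0.383, adjusted p = 0.00115) and by 1.83 on the adequate diet (SE 0.383, adjusted p = 0.00318). Gvin1 has near-identical copies in the mouse, so its feature may report more than a single gene. Mx2 had 5.28, 5.69 and 5.29 in deficient basophilic and 5.22, 5.45 and 5.34 in adequate basophilic arrays, against 4.99, 4.96 and 4.93 in deficient and 4.78, 4.77 and 4.95 in adequate proerythroblast arrays. It passed the filter through 3 basophilic arrays alone, so its stage differences of 0.46 and 0.50 are given with no test. Mx1 lay between 4.56 and 5.43, and RefSeq lists both Mx genes of the reference strain as transcribed pseudogenes.

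Samhd1 and Bst2 did not rise. Samhd1, which breaks down deoxynucleotides, fell by 0.53 on the deficient diet (SE 0.167, adjusted p = 0.0226), and the difference on the adequate diet was -0.29 (adjusted p = 0.152). With quantile normalization the deficient difference of Samhd1 was -0.14 (adjusted p = 0.364). Bst2, the tetherin that holds budding virions at the membrane, fell by 1.02 on the adequate diet (SE 0.235, adjusted p = 0.00560), beside a difference of -0.11 on the deficient diet (adjusted p = 0.686).

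Among the transcription factors, Irf7 rose on both diets. Irf7, which drives type I interferon genes, had 7.75, 8.96 and 7.92 in deficient basophilic and 8.77, 8.82 and 8.20 in adequate basophilic arrays, against 6.79, 6.93 and 6.93 in deficient and 7.08, 6.85 and 6.74 in adequate proerythroblast arrays. The rise was 1.33 on the deficient diet (SE 0.276, adjusted p = 0.00561) and 1.71 on the adequate diet (SE 0.276, adjusted p = 0.000587). Leaving out replicate 2 of both basophilic groups, it was 0.95 (adjusted p = 0.00181) and 1.60 (adjusted p = 5.18e-05). Irf9, the DNA-binding partner of STAT2, rose by 0.69 on the adequate diet (adjusted p = 0.0195), with a difference of 0.27 on the deficient diet (adjusted p = 0.270). Without replicate 2 of both basophilic groups Irf9 rose by 0.36 on the deficient diet as well (adjusted p = 0.0361). Irf1 rose by 0.42 on the deficient diet (adjusted p = 0.0400), with 0.16 on the adequate diet (adjusted p = 0.380), and the deficient difference was 0.25 (adjusted p = 0.0659) without replicate 2 of both basophilic groups. Stat2 passed on neither diet, with differences of -0.14 (adjusted p = 0.512) and -0.20 (adjusted p = 0.359) on the deficient and adequate diets.

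No sensor of foreign nucleic acid rose on either diet in the fit of all 12 arrays as deposited, but with quantile normalization Adar rose by 0.37 (adjusted p = 0.0263) and 0.63 (adjusted p = 0.000977) on the deficient and adequate diets. The 7 sensors and their partners were the RNA helicases Ddx58, Ifih1 and Dhx58, the RNA-activated kinase Eif2ak2, the editing enzyme Adar, the ubiquitin ligase Trim25 and Zbp1. Their median difference was -0.19 on the deficient and 0.18 on the adequate diet. Eif2ak2, which halts translation when it meets double-stranded RNA, fell by 0.84 on the deficient diet (SE 0.213, adjusted p = 0.0120), and its difference on the adequate diet was -0.51 (adjusted p = 0.0601). The other 6 lay between -0.43 (Trim25) and 0.31 (Zbp1) on the deficient diet and between -0.30 (Ddx58) and 0.36 (Adar) on the adequate diet, with no call. Centred on array medians, Ddx58 (-0.51, adjusted p = 0.0429) and Eif2ak2 (-0.72, adjusted p = 0.0460) fell on the adequate diet. When replicate 2 of both basophilic groups was left out, Adar rose by 0.55 and Eif2ak2 fell by 0.35 on the adequate diet (adjusted p = 0.000351 and 0.0429).

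The interferon gamma receptor chains behaved unlike each other. Ifngr1, the chain that binds the ligand, had 7.39, 5.41 and 6.91 in deficient basophilic and 7.22, 6.15 and 6.19 in adequate basophilic arrays, against 7.41, 7.35 and 8.38 in deficient and 8.88, 8.85 and 9.21 in adequate proerythroblast arrays. It fell by 2.46 on the adequate diet (SE 0.465, adjusted p = 0.00165), a 5.50-fold difference. On the deficient diet the difference was -1.14 (SE 0.465, adjusted p = 0.0536), where the groups overlapped. Ifngr2, the signalling chain, differed by 0.27 on the deficient diet (adjusted p = 0.619) and by -0.18 on the adequate diet (adjusted p = 0.743). Leaving replicate 2 out of both basophilic groups, Ifngr2 rose by 0.93 on the deficient diet (adjusted p = 0.00330).

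Lgals3bp, a secreted glycoprotein that binds galectins, fell on both diets, by 0.65 on the deficient diet (SE 0.155, adjusted p = 0.00958) and by 1.69 on the adequate diet (SE 0.155, adjusted p = 1.09e-05). Xaf1, a partner of the apoptosis inhibitor XIAP, rose by 0.97 on the adequate diet (SE 0.256, adjusted p = 0.0111), and Sp100, a nuclear body protein, rose by 1.14 (SE 0.229, adjusted p = 0.00246). On the deficient diet these differed by 0.53 each (adjusted p = 0.0916 and 0.0662). Ifi35 (0.50, adjusted p = 0.0305) and Parp9 (0.38, adjusted p = 0.0250), an ADP-ribosyltransferase family member, rose on the adequate diet. Dtx3l, the ubiquitin ligase that pairs with Parp9 and lies beside it, rose by 0.64 on the deficient diet (adjusted p = 0.0119), as did Rtp4, a Golgi chaperone of receptors, by 0.44 (adjusted p = 0.0432). With all 12 arrays Parp14 passed on neither diet, at 0.41 and 0.40. Without replicate 2 of both basophilic groups it rose by 0.54 on each diet (adjusted p = 0.00585 and 0.00416). In those fits Ifi35 also rose on the deficient diet (0.49, adjusted p = 0.00456). Dtx3l (0.37, adjusted p = 0.0135) and Rtp4 (0.43, adjusted p = 0.0406) then rose on the adequate diet. Of all genes 59% and 68.4% passed there on the deficient and adequate diets. That a gene passed on 1 diet alone does not show that the diets differed. With all 12 arrays, no block and no array weights, no member passed the test of that difference. With array weights 3 members passed it, where 2.39% of all genes did. Lgals3bp and Rsad2 passed it with the replicate block within each stage, and Isg15, Usp18, Oas3 and Lgals3bp passed it without replicate 2 of both basophilic groups.

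**Figure D3:**
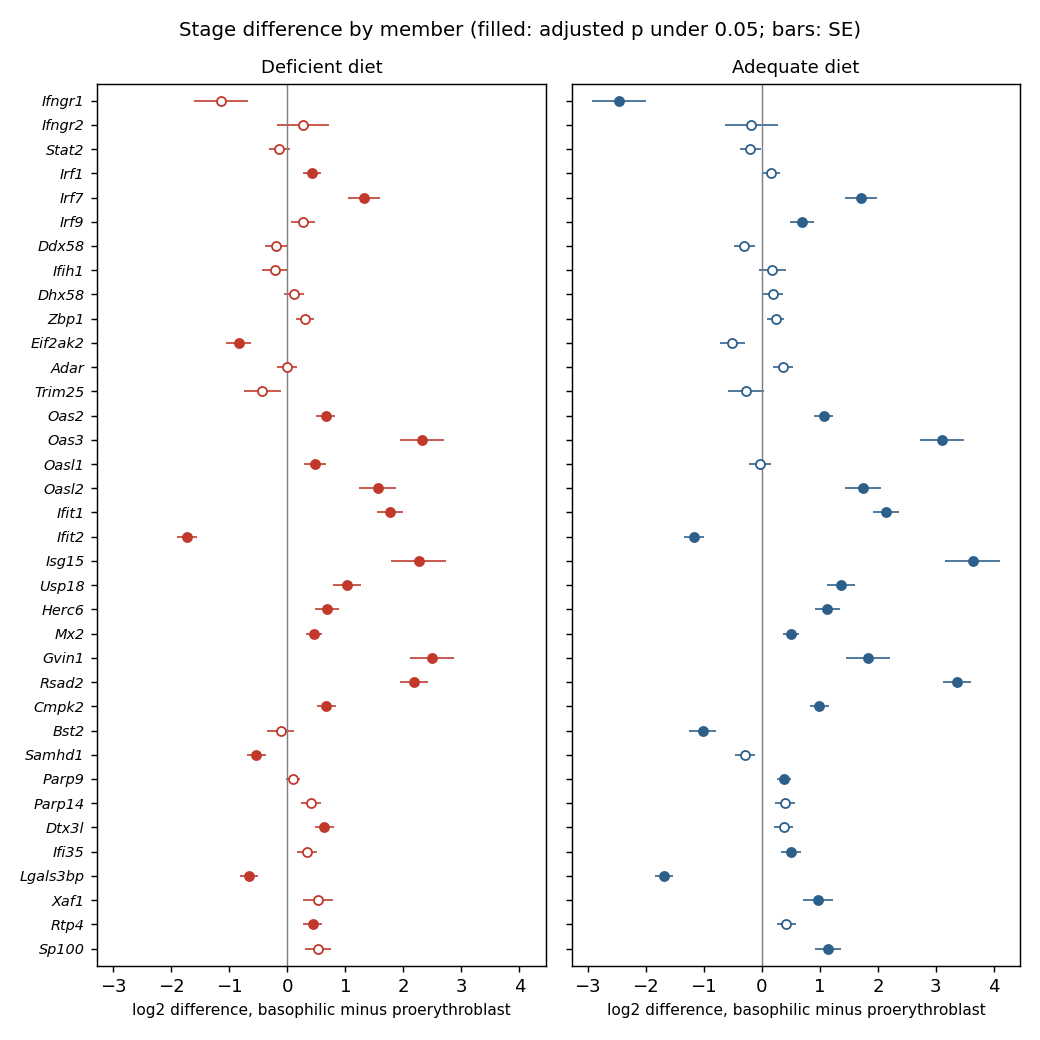
Difference in log2 expression between basophilic erythroblasts and proerythroblasts (points) with its SE (bars) for the 36 tested genes on the deficient (left) and adequate (right) diet; filled points passed an adjusted p of 0.05. Isg15, Rsad2 and Oas3 lie furthest right on the adequate diet at 3.63, 3.37 and 3.11, and Ifngr1 lies furthest left there at -2.46. Mx2 passed the filter through basophilic arrays alone.

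Mx2 aside, 17 of the 20 calls on the adequate diet were kept in every alternative tried and in every fit that left out an array, and 10 of the 19 on the deficient diet were. The calls of Ifi35, Irf9 and Parp9 on the adequate diet were each lost in some fits that left out an array. Their highest adjusted p was 0.103 for Ifi35 and 0.0608 for Irf9, both without adequate basophilic replicate 1, and 0.0854 for Parp9 without adequate proerythroblast replicate 2. On the deficient diet the calls of Herc6, Irf1, Oasl1, Rtp4 and Samhd1 were lost in such fits. Their highest adjusted p was 0.0712 for Herc6 without deficient proerythroblast replicate 2, and 0.118 for Rtp4 without deficient basophilic replicate 2. Without deficient proerythroblast replicate 3 it was 0.107 for Irf1 and 0.0635 for Samhd1. Cmpk2, Dtx3l and Usp18 lost theirs when the deficient arrays alone were fitted (adjusted p = 0.0563, 0.0637 and 0.0515), and Lgals3bp lost its call with quantile normalization (adjusted p = 0.0764). Centring each array on its median moved the median stage difference of all genes to -0.13 on the deficient diet, beside 0.08 without it, and to -0.11 on the adequate diet, beside 0.12. The adequate calls were then 13 higher and 6 lower, where 41.1% of all genes passed.

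Some markers of other cells also differed between the stages. Neutrophil markers (12 matched) had mean levels of 6.39 to 6.73 in deficient basophilic and 6.01 to 6.45 in adequate basophilic arrays, against 7.09 to 7.94 in deficient and 6.73 to 8.0 in adequate proerythroblast arrays. Of the 12, 6 fell on the deficient diet, and 7 fell and 1 rose on the adequate diet. Across all genes 56% passed on the deficient (24.9% lower) and 54.2% on the adequate diet (25.6% lower). B cell markers (7 matched) had mean levels of 6.97 to 7.56 in deficient basophilic and 7.39 to 7.85 in adequate basophilic arrays, against 7.72 to 8.29 in deficient and 7.51 to 8.82 in adequate proerythroblast arrays. The part of these cells in the members that fell, such as Ifit2, Ifngr1 and Lgals3bp, was not tested. Of 7 B cell markers 1 fell on the deficient diet and 0 passed on the adequate diet. Of 11 macrophage markers tested 1 rose on each diet. Of 4 megakaryocyte markers 2 rose on each diet, and of 7 T and NK cell markers 1 rose on each. Of 7 plasmacytoid dendritic cell markers 2 rose and 1 fell on the deficient diet, and 1 rose and 2 fell on the adequate diet. The part of such cells in the members that rose was not tested either.

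The second question was what selenium deficiency changed in proerythroblasts. Lgals3bp and Bst2 were lower on the deficient diet, and no member passed in the other direction. That is 2 of 36 members, beside 4.02% of all genes (2.76% lower). The median difference of the members was -0.03, and that of all genes 0.02.

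Lgals3bp had 7.56, 7.78 and 7.54 in deficient proerythroblasts, against 8.92, 8.74 and 8.43 in adequate proerythroblasts. The groups did not overlap. The gene was lower by 1.07 log2 units in deficient proerythroblasts (difference -1.07, SE 0.155, adjusted p = 0.00294), a 2.10-fold difference, and the call was kept in every alternative tried and in every fit that left out an array. In basophilic erythroblasts its values were 6.91, 7.17 and 6.84 on the deficient and 7.16, 6.93 and 6.93 on the adequate diet, which overlap.

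Bst2 had 6.94, 7.28 and 6.99 in deficient proerythroblasts, against 8.26, 8.77 and 7.78 in adequate proerythroblasts, with no overlap. The difference was -1.20 (SE 0.235, adjusted p = 0.0143), a 2.30-fold lower level in deficient cells. The call was lost without any of 4 arrays. When deficient proerythroblast replicate 1 or 3 was left out, the adjusted p was 0.0519 or 0.0715. When adequate proerythroblast replicate 1 or 2 was left out, it was 0.0636 or 0.0622. In basophilic erythroblasts Bst2 had 6.87, 7.33 and 6.67 on the deficient and 7.34, 7.19 and 7.22 on the adequate diet. The low array of adequate proerythroblasts, replicate 3, was the array with the highest macrophage, B cell and T cell markers named above. The stage comparison on the adequate diet and the diet comparison in proerythroblasts share the 3 adequate proerythroblast arrays, in which both genes were highest.

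**Figure D4:**
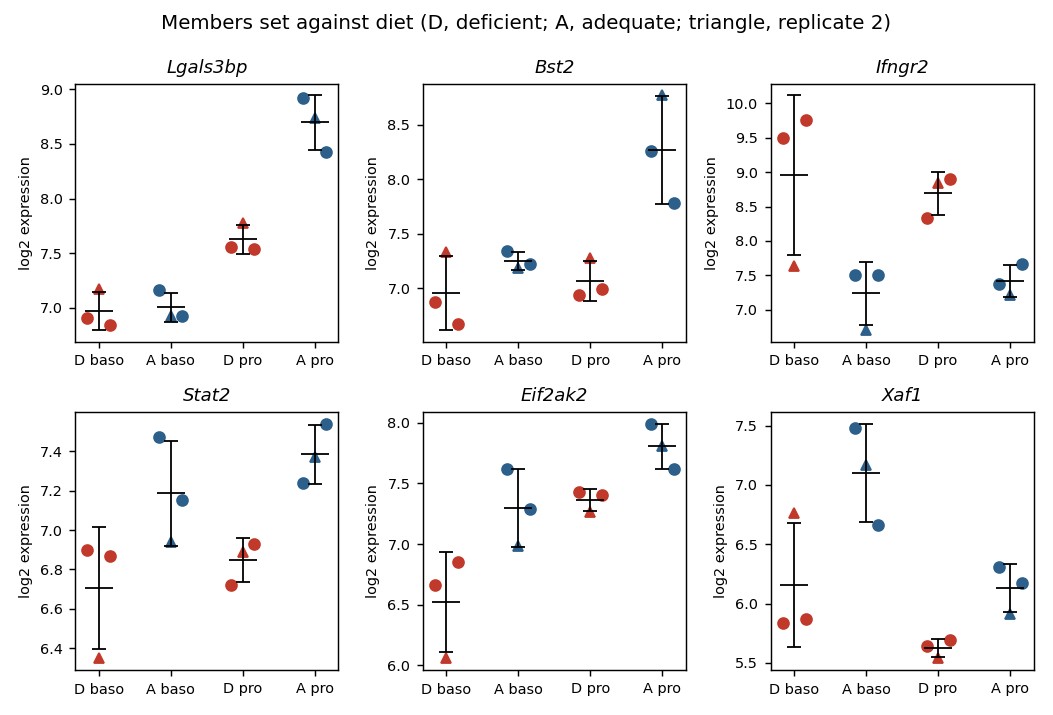
Log2 expression of 6 genes in each array (points; triangles are replicate 2), with the group mean and SD (bars), for deficient (D, red) and adequate (A, blue) basophilic erythroblasts (baso) and proerythroblasts (pro). Lgals3bp and Bst2 are highest in adequate proerythroblasts, and Ifngr2 is higher in the deficient group of either stage, with deficient basophilic replicate 2 at 7.63 below the other deficient arrays.

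Other members with small p-values in proerythroblasts did not pass after adjustment over all genes. Rsad2 was higher in all 3 deficient arrays (9.74, 9.47 and 10.07) than in the adequate arrays (8.45, 9.20 and 9.12), a difference of 0.84 (SE 0.236, adjusted p = 0.0786). Oasl1 had 6.23, 6.47 and 6.16 in deficient and 7.26, 6.89 and 6.66 in adequate proerythroblasts (difference -0.65, SE 0.188, adjusted p = 0.0849), again without overlap, and 6.49, 7.11 and 6.68 in deficient and 6.91, 6.97 and 6.83 in adequate basophilic arrays. Stat2 had 6.72, 6.89 and 6.93 in deficient and 7.24, 7.37 and 7.54 in adequate proerythroblasts (difference -0.54, SE 0.181, adjusted p = 0.150). The receptor chains ran in opposite directions here. Ifngr2 had 8.33, 8.84 and 8.90 in deficient and 7.37, 7.22 and 7.67 in adequate proerythroblasts (difference 1.27, SE 0.451, adjusted p = 0.178). Ifngr1 had 7.41, 7.35 and 8.38 in deficient and 8.88, 8.85 and 9.21 in adequate proerythroblasts (difference -1.27, SE 0.465, adjusted p = 0.198). In all, the groups did not overlap for 5 members that were higher and 9 that were lower in deficient proerythroblasts, where 15.5% and 15.6% of all genes did so.

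The labels give replicate numbers but do not state pairs. Same-numbered deficient and adequate arrays of a stage were taken as pairs from their correlations in these same data (0.46, 0.18 and 0.52 in proerythroblasts). Arrays with different numbers were not compared, so these correlations cannot establish the pairs. With the replicate number as a block within each stage 7 members passed in proerythroblasts, where 11.1% of all genes passed. Ifngr2 (adjusted p = 0.00907) and Rsad2 (adjusted p = 0.0155) were higher, and Ifngr1 (adjusted p = 0.0115), Stat2 (adjusted p = 0.0135), Oasl1 (adjusted p = 0.0248), Bst2 (adjusted p = 0.00308) and Lgals3bp (adjusted p = 0.00186) lower in deficient cells. Without replicate 2 of both basophilic groups, arrays that enter this comparison only through the shared spread, 10 members passed, where 17% of all genes did. Those 10 were the same 7 members, together with Ifi35 higher (0.32) and Eif2ak2 (-0.44) and Dtx3l (-0.38) lower. Without deficient basophilic replicate 2 alone 8 members passed, where 9.13% of all genes did.

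Stage markers moved with diet in proerythroblasts. Of 6 tested progenitor markers, Kit, Myb, Cdk6 and Sox4 fell on the deficient diet. The mean level of the 7 matched progenitor markers was 6.52 to 6.76 in deficient and 7.40 to 7.70 in adequate proerythroblasts, against 5.97 to 6.32 in deficient and 5.97 to 6.14 in adequate basophilic erythroblasts. Of 10 erythroid markers 4 rose, where 4.02% of all genes passed in either direction. Deficient proerythroblasts thus lay between the adequate proerythroblasts and the basophilic arrays in the progenitor markers, and the part of this in the differences of Lgals3bp, Bst2 and Rsad2 was not tested. No macrophage marker passed (0 of 11, and 0 of 11 at an unadjusted p under 0.05 with limma), and neither did a B cell (0 of 7) or a T and NK cell marker (0 of 7). Mmp9 rose among 12 neutrophil markers and Itga2b among 4 megakaryocyte markers. Of 7 plasmacytoid dendritic cell markers 1 fell, which was Bst2 itself.

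The third question was what the diet changed in basophilic erythroblasts. With limma none of the 36 members passed after adjustment, where 4 of all genes did (0.0199%). At an unadjusted p under 0.05 there were 12 of the 36 members and 1305 of the 20128 genes. The estimates leaned one way, with 27 members below 0 and 9 above it and a median of -0.28, beside 0.04 over all genes. Of all genes tested, 8337 were below 0 and 11759 above it. The members were read from the same arrays, so their signs are not independent. The groups did not overlap for 1 member that was higher (Ifngr2) and 7 that were lower in deficient cells (Herc6, Eif2ak2, Oas2, Stat2, Ifih1, Parp9 and Dhx58), where 4.13% and 3.91% of all genes did so.

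The 6 members with the smallest p were as follows. Herc6 had 7.63, 8.02 and 7.56 in deficient and 8.68, 8.75 and 8.27 in adequate basophilic arrays, a difference of -0.83 (SE 0.209, adjusted p = 0.299), beside 7.43, 6.64 and 7.09 in deficient and 7.50, 7.50 and 7.31 in adequate proerythroblasts. Ifngr2 had 9.49, 7.63 and 9.75 in deficient and 7.51, 6.71 and 7.50 in adequate arrays, a difference of 1.72 (SE 0.451, adjusted p = 0.323). In Ifngr2 replicate 2 was the low array of both groups, so its deficient value lay just above the highest adequate value.

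Xaf1 had 5.84, 6.76 and 5.87 in deficient and 7.48, 7.17 and 6.66 in adequate basophilic arrays (difference -0.95, SE 0.256, adjusted p = 0.332). Eif2ak2 had 6.66, 6.06 and 6.85 in deficient and 7.62, 6.98 and 7.29 in adequate arrays (difference -0.77, SE 0.213, adjusted p = 0.355). These differ in replicate 2, which was the high deficient array for Xaf1 and the low array of both groups for Eif2ak2. Oas2 had 5.62, 5.93 and 5.88 in deficient and 6.51, 6.09 and 6.24 in adequate arrays (difference -0.47, SE 0.166, adjusted p = 0.560). Stat2 had 6.90, 6.35 and 6.87 in deficient and 7.47, 6.94 and 7.15 in adequate arrays (difference -0.48, SE 0.181, adjusted p = 0.613). In both genes every deficient array was below every adequate array. In proerythroblasts Xaf1 had 5.64, 5.54 and 5.69 in deficient and 6.31, 5.91 and 6.17 in adequate arrays, and Eif2ak2 had 7.43, 7.26 and 7.40 in deficient and 7.99, 7.81 and 7.62 in adequate arrays. Oas2 had 5.10, 5.32 and 5.02 in deficient and 5.15, 5.01 and 5.49 in adequate proerythroblasts. Xaf1 and Eif2ak2 were thus below the adequate arrays at that stage too, without passing the test, and Oas2 overlapped.

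Replicate 2 set the outcome for several members. Deficient basophilic replicate 2 was the highest of its group for 22 of the 36 members (61.1%), beside 53.4% of all genes tested. Adequate basophilic replicate 1 was the highest of its group for 24 of the 36 (66.7%), beside 35.3% of all genes. Without replicate 2 of both basophilic groups 5 members passed, where 2.19% of all genes did. Ifngr2 was higher by 2.12 (SE 0.204, adjusted p = 0.00197) in deficient cells. Isg15 differed by -1.74 (SE 0.207, adjusted p = 0.00498), and Usp18 differed by -1.01 (SE 0.121, adjusted p = 0.00504). Xaf1 (-1.22, adjusted p = 0.0310) and Eif2ak2 (-0.70, adjusted p = 0.0491) were lower as well. With all arrays Isg15 differed by -1.13 (SE 0.473, adjusted p = 0.711) and Usp18 by -0.59 (SE 0.240, adjusted p = 0.681). Isg15 and Usp18 overlapped between the diets only through deficient basophilic replicate 2. Without that array alone 4 members passed, where 1.47% of all genes did, among them Ifngr2 (2.38, adjusted p = 0.00203) and Xaf1 (-1.25, adjusted p = 0.0155).

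With the replicate number as a block within each stage, which keeps all arrays, 4 members passed in basophilic erythroblasts, where 1.45% of all genes did. Ifngr2 (1.72, adjusted p = 0.0142) and Gvin1 (0.84, adjusted p = 0.0157) were higher, and Eif2ak2 (-0.77, adjusted p = 0.0341) and Herc6 (-0.83, adjusted p = 0.0411) lower in deficient cells. Gvin1 overlapped between diets in single arrays, but within each replicate number the deficient value was the higher, at 8.95 against 8.26, 10.30 against 9.39 and 9.22 against 8.31. Ifngr2 and Eif2ak2 passed both with the block and without replicate 2, and Isg15 and Usp18 passed only without replicate 2.

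**Figure D5:**
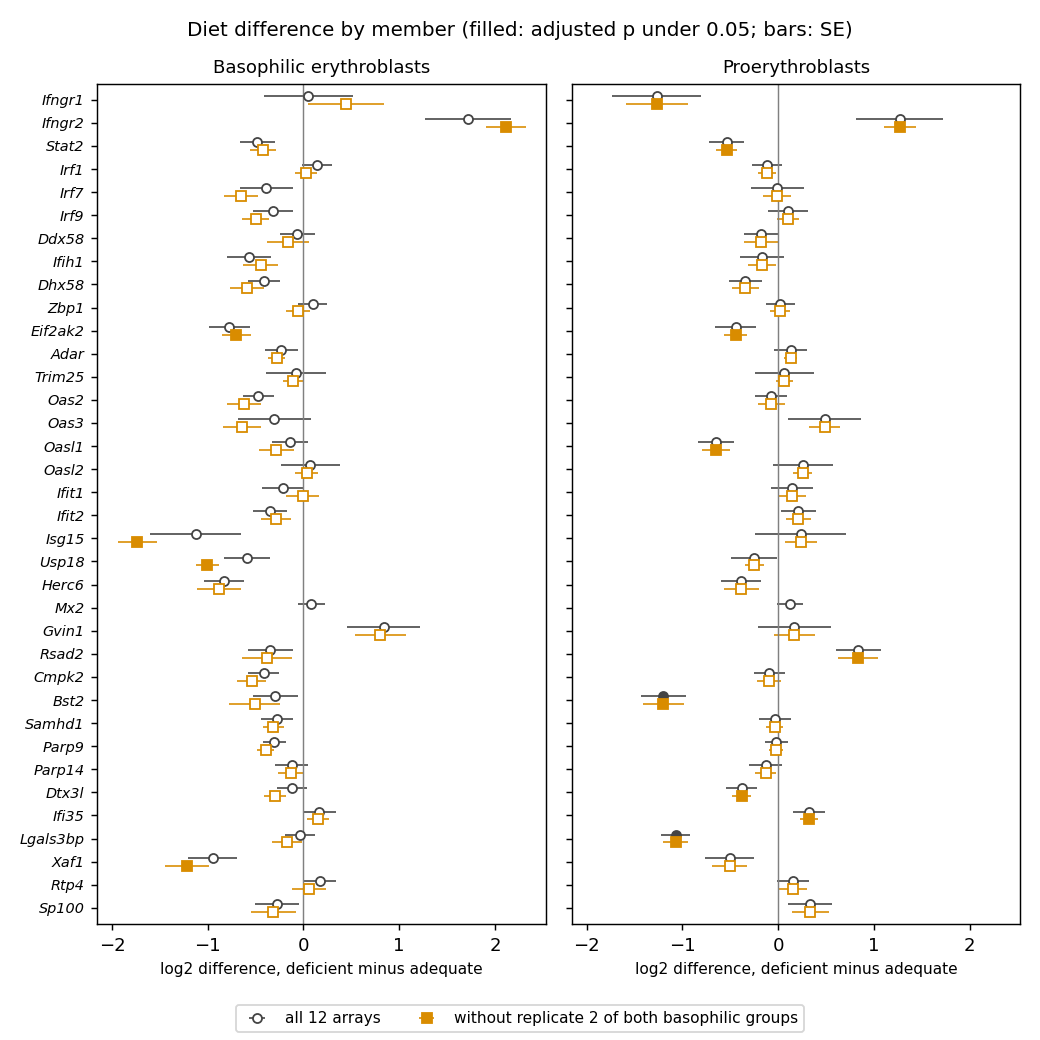
Difference in log2 expression between the deficient and the adequate diet (points) with its SE (bars) for the tested genes in basophilic erythroblasts (left) and proerythroblasts (right), from all 12 arrays (grey circles) and without replicate 2 of both basophilic groups (orange squares); filled points passed an adjusted p of 0.05. In basophilic erythroblasts no grey point is filled, and the orange points of Ifngr2, Eif2ak2, Isg15, Usp18 and Xaf1 are. Mx2 has no orange point because it did not pass the filter on those 10 arrays.

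Averaged over both stages, Ifngr2 rose by 1.49 on the deficient diet (SE 0.319, adjusted p = 0.0308), and Lgals3bp (difference -0.55, SE 0.110, adjusted p = 0.0223) and Bst2 (difference -0.75, SE 0.166, adjusted p = 0.0384) fell, where 2.56% of all genes passed. Ifngr2 was the 1 member whose deficient arrays were all above the adequate arrays within each stage, as were those of 203 of the 20128 genes. For 2 members, Stat2 and Eif2ak2, the deficient arrays were all below within each stage, as were those of 260 genes. The calls of Ifngr2, Lgals3bp and Bst2 rested on the full set of arrays. That of Ifngr2 was lost in 10 of the 12 fits that left out an array, that of Bst2 in 10 and that of Lgals3bp in 7, and in each case the highest adjusted p, of 0.0945, 0.110 and 0.0764, came without deficient proerythroblast replicate 3. Without deficient basophilic replicate 2, 12 members passed, where 7.63% of all genes did, and without replicate 2 of both basophilic groups 13 did, where 11.9% of all genes passed. With the block 10 members passed, Ifngr2 and Gvin1 higher and Stat2, Ifih1, Eif2ak2, Oasl1, Herc6, Bst2, Lgals3bp and Xaf1 lower, where 10.2% of all genes passed. In place of these 3 calls, 1 higher and 2 lower, quantile normalization gave 1 higher and 4 lower (3.32% of all genes), and median centring gave 0 higher and 4 lower (3.18% of all genes), with Ifngr2 at an adjusted p of 0.0637.

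The last question was whether diet acted differently at the 2 stages. None of the 36 members passed the interaction test in limma, where 61 of all genes did (0.303%), and 4 members were under an unadjusted p of 0.05. These were Lgals3bp (1.04, SE 0.219, adjusted p = 0.0840), Rsad2 (-1.18, SE 0.334, adjusted p = 0.197), Bst2 (0.91, SE 0.332, adjusted p = 0.354) and Ifit2 (-0.56, SE 0.252, adjusted p = 0.528), each given as the diet difference in basophilic erythroblasts minus that in proerythroblasts. With the block Lgals3bp (adjusted p = 0.0309) and Rsad2 (adjusted p = 0.0416) passed, where 2.93% of all genes did. For Rsad2 the diet difference was -0.35 in basophilic erythroblasts and 0.84 in proerythroblasts. Without replicate 2 of both basophilic groups 4 members passed, where 3.68% of all genes did. Isg15 (-1.97, adjusted p = 0.00965), Usp18 (-0.76, adjusted p = 0.0362) and Oas3 (-1.13, adjusted p = 0.0463) were below 0, and Lgals3bp (0.90, adjusted p = 0.0482) above it.

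The rest of the pathway was read from lists of genes outside the 39. Interferon genes themselves were dim: Ifnb1 lay between 4.15 and 5.19 and Ifng between 4.09 and 4.83, below the filter value in every array. Of the 6 interferon genes that passed the filter, Ifnl2 and Ifnl3 rose between stages on both diets and Ifna1 on the adequate diet, by 0.46 to 0.74. Ifne passed the filter through basophilic arrays alone, so its stage difference is not given. The basophilic arrays with these rises also had the higher background medians given above, and the part of background in them was not tested. No interferon gene passed in a diet comparison with limma, and none was under an unadjusted p of 0.05. Of the 7 receptor and kinase genes, 2 rose on the deficient diet, where 56% of all genes passed. On the adequate diet 5 rose and 1 fell, where 54.2% of all genes passed. Ifnar2, a chain of the type I receptor, rose by 0.85 on the adequate diet (SE 0.155, adjusted p = 0.00128).

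Regulators fell and rose between the stages. Of 8 negative regulators 2 rose and 3 fell on the deficient diet, and 1 rose and 3 fell on the adequate diet. The feedback inhibitor Socs3 rose by 0.69 and 0.68 on the deficient and adequate diets, and the phosphatase gene Ptpn6 fell by 0.75 and 1.55. Mavs, the adaptor of the RNA helicases, rose by 0.97 and 1.55, and Myd88, the adaptor of Toll-like receptors, fell by 0.72 and 0.80. Of 29 further induced genes 7 rose and 3 fell on the deficient diet, and 9 rose and 4 fell on the adequate diet, with Oas1b, Isg20 and Parp12 among those that rose and Ifitm2, Nmi and Samd9l among those that fell on both. Of 17 interferon gamma targets, 3 rose and 1 fell on the deficient diet, and 2 rose and 2 fell on the adequate diet. Beside the counts of these lists, 56% of all genes passed on the deficient and 54.2% on the adequate diet.

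By diet, the pathway genes that passed did so in proerythroblasts or over both stages. In deficient proerythroblasts Ube2l6 had 10.44, 10.16 and 10.66, against 9.05, 9.20 and 9.22 in adequate proerythroblasts (difference 1.26, SE 0.202, adjusted p = 0.00492), and Uba7 had 9.40, 9.41 and 9.37 against 7.95, 8.08 and 7.95 (difference 1.40, SE 0.269, adjusted p = 0.0131). In the same arrays the ligase gene Herc6 differed by -0.38 (SE 0.209, adjusted p = 0.491) and Isg15 by 0.24 (adjusted p = 0.998). Tyk2, a kinase of the type I receptor, was lower by 0.72 (difference -0.72, SE 0.115, adjusted p = 0.00469). Irf3 (-0.70, adjusted p = 0.0439), Ptpn6 (-1.22, adjusted p = 0.00385), Nmi (-0.74), Gbp7 (-1.33) and Psmb10 (-0.85) were lower as well. Gbp7, a guanylate-binding GTPase, had 7.51, 6.77 and 7.21 in deficient and 8.59, 8.63 and 8.26 in adequate proerythroblasts, and 7.24, 7.28 and 6.89 in deficient and 8.53, 7.94 and 8.0 in adequate basophilic erythroblasts. Over both stages Tyk2, Ptpn6, Nmi, Gbp7 and Rnf213 fell and Ube2l6 rose. No gene of these lists passed the diet comparison in basophilic erythroblasts, in which Gbp7 differed by -1.02 (adjusted p = 0.181), or the interaction.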

How the data were processed

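The values are log2 expression, as the authors deposited them. They come from Affymetrix Expression Console, per the submitters' processing notes. Its version and the normalization method are not given in the sources used here. Of 72688 features, 186 were controls, 31258 named a single gene, 1492 several and 39938 none. For the 441 genes with several features, the feature with the highest mean was used. Genes above 5.30 in at least 3 arrays were kept (20128). The number of arrays limits the precision.

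A linear model with a mean per group was fitted to all 12 arrays with limma 3.58.1 (lmFit and eBayes, R 4.3.3), and the Benjamini-Hochberg adjustment ran over all genes tested, with a threshold of 0.05. The fit was also run on simulated data, drawn independently for each array. Those data lack the shared deviations between arrays given below, so that run cannot address them. The members, gene lists and tests were chosen with earlier results of these data known. Values in each array are given for members past the threshold in a diet comparison or the interaction and for the 6 with the smallest p in the diet effect of each stage. Stage calls are named with their estimates, at most 10 per diet in full. Other genes shown by array were chosen after their values were seen.

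Same-numbered deficient and adequate arrays of a stage deviated together from their group means, with correlations of 0.72, 0.78 and 0.54 in basophilic erythroblasts and 0.46, 0.18 and 0.52 in proerythroblasts. On that ground the labels' replicate numbers were taken as pairs within a stage, which the labels do not state. Arrays with different numbers were not compared in this way, and replicate 2 stood apart in both basophilic groups. These correlations therefore cannot establish the pairs, and calls with the block are given as an alternative only. Between stages the correlations were -0.17 to 0.25. Alternatives were the replicate block, other filters and scalings, array weights, other variance settings, fewer arrays and leaving out each array. Promoter windows came from RefSeq.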

Additional observations from a re-analysis of the deposited data

How the results depend on the processing

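No call reversed its direction in any alternative tried. The number of members called by diet depended on how the spread between arrays was modelled. With the replicate block within each stage it was 4 in basophilic erythroblasts, 7 in proerythroblasts, 10 over both stages and 2 for the interaction, in place of 0, 2, 3 and 0. Without replicate 2 of both basophilic groups these counts were 5, 10, 13 and 4. With array weights, whose estimation did not converge, they were 4, 19, 13 and 3, where 0.77%, 39.8%, 12.2% and 2.39% of all genes passed. With the replicate number as a block over all arrays, 6 members (4.35% of all genes) passed over both stages, and quantile normalization gave 5 there (3.32%). When only the arrays of the comparison were fitted, 9 members (13.5% of all genes) passed by diet in proerythroblasts and 11 (15.4%) by stage on the deficient diet, in place of 2 and 20. The causes were not tested.

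Leaving out each array in turn gave 0 to 4 members by diet in basophilic erythroblasts, 1 to 8 in proerythroblasts, 0 to 12 over both stages and 0 to 1 for the interaction, each highest without deficient basophilic replicate 2. In these fits 0% to 1.47%, 1.53% to 9.13%, 1.2% to 7.63% and 0.0597% to 1.44% of all genes passed. By stage it gave 14 to 22 members (24.7% to 61.7% of all genes) on the deficient and 17 to 25 (28.3% to 71.2%) on the adequate diet. The stage counts here include Mx2 where it was tested. The block within each stage was not run for the stage effects, since its numbers are nested in the stages. The filters, the mean of a gene's features and the trended and robust variance kept every count within 1.5 times the value reported.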
